A study of Saccharomyces cerevisiae with 12 samples.

Results

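The table of RNA sequencing counts held 81 features whose names begin with snR, of 6216 in all, and these are the small nucleolar RNAs (snoRNAs) and small nuclear RNAs (snRNAs) of Saccharomyces cerevisiae described here. They were taken by name alone. Of the 81, 47 are box C/D snoRNAs, 29 are box H/ACA snoRNAs and 5 are spliceosomal RNA features, namely snR19 (U1), snR14 (U4), snR6 (U6) and the long and short forms of snR7 (U5). The U2 snRNA carries another name, LSR1, and is given beside them. The annotation of the reference genome states the same class for 45 of 47 box C/D, 29 of 29 box H/ACA and 5 of 5 spliceosomal features, and its notes state no class for either copy of U3. The cells were wild-type BY4741, a laboratory strain, growing exponentially in rich medium (YPD). The treatment was 500 nM concanamycin A, an inhibitor of the proton pump of the vacuole (V-ATPase). The 4 groups are 0, 1, 3 and 6 h of treatment, with 3 libraries each, and the 0 h libraries are labelled as treated for 0 hours. The 12 libraries include no untreated culture of the later hours. Exposure and hours in culture therefore cannot be told apart. The strain's deletion markers LEU2, URA3 and MET17 summed to 8, 20 and 0 counts over the 12 libraries, and HIS3, which keeps part of its reading frame in this strain, to 7570.

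SnoRNAs are stable nucleolar RNAs that guide the chemical modification of ribosomal RNA (rRNA). A box C/D snoRNA pairs with rRNA through a short guide stretch just upstream of its box D or of an internal box D′. The methyltransferase Nop1 (fibrillarin) in the particle then methylates the ribose of the paired base. A box H/ACA snoRNA folds into hairpins whose loops expose a uridine to the pseudouridine synthase Cbf5. A few members, U3, U14, snR30 and snR10, act in cleavage of the ribosomal precursor. Most yeast snoRNAs are transcribed from their own promoters by RNA polymerase II, some lie in shared precursors or in introns of host genes, and snR52 and the U6 snRNA are transcribed by RNA polymerase III.

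The members on which the results turn are shown first, as the reference genome R64 from RefSeq gives them on the strand of the gene, with the guide in capitals, that is the stretch complementary to the annotated rRNA target. snR39 lies in an intron of RPL7A at chrVII:365163-365251 on the minus strand, and snR59 lies in an intron of the paralog RPL7B at chrXVI:173827-173904 on the plus strand. Both are annotated to guide methylation at position 807 of the large-subunit rRNA.
snR39: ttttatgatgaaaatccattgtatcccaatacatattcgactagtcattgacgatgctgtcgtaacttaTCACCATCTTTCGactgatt
snR59: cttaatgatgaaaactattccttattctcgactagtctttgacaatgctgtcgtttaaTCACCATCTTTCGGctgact
These sequences were identical at 74.2% of the aligned positions, and they share the guide. snR54, in an intron of IMD4 (chrXIII:163535-163620, minus strand, small-subunit position 974), and 2 members outside known introns, snR66 (chrXIV:586090-586175, plus strand, large-subunit position 2417) and snR68 (chrIX:97111-97246, plus strand, large-subunit position 2640) rose, as snR39 did, at 3 h and 6 h.
snR54: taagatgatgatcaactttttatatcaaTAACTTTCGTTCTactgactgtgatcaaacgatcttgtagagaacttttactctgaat
snR66: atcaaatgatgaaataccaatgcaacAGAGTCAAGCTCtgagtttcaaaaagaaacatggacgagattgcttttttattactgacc
snR68: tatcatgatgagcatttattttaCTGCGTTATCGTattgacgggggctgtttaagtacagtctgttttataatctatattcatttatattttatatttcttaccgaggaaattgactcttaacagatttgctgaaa
snR52 (chrV:431129-431220, minus strand, shown with its guide to large-subunit position 2921) and snR76 (chrXIII:297725-297833, plus strand, large-subunit position 2197) had the largest rise and, at the abundance threshold used for names, the largest fall at 1 h.
snR52: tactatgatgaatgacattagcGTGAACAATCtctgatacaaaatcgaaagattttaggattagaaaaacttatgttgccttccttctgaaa
snR76: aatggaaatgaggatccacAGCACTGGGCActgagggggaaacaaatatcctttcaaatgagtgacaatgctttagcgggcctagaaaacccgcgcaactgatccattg
For the box H/ACA class, snR189 (chrIII:178610-178798, minus strand) and snR35 (chrXV:759326-759529, minus strand), which fell more than most of that class at 3 h, are shown with the ACA nearest the 3′ end in capitals.
snR189: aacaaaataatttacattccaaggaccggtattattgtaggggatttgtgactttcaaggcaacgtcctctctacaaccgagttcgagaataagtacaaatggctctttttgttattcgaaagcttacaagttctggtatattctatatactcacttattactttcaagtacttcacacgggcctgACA
snR35: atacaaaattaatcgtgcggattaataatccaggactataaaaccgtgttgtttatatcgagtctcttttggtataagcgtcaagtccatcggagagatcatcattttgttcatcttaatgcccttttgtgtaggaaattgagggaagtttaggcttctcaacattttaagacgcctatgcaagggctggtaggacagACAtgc

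Each motif looked for was more common in its own snoRNA class than in the other, though not every member held it. TGATGA, part of box C, stood in the first 26 bases of 76.6% of the box C/D features against 3.45% of the box H/ACA features, read on the strand of the gene. CTGA, the box D, stood in the last 20 bases of 95.7% of box C/D features and 6.9% of box H/ACA features. ACA stood in the last 8 bases of 58.6% of box H/ACA features and 6.38% of box C/D features. The annotation names 55 methylation positions for 43 box C/D features, and the base named matched the reference at 53 of them. A complement of at least 10 bases was found at 43 positions, and at 29 of these CTGA began 5 bases after the base paired with the target.

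Library totals ran from 8508894 to 11008709 counts, and snR features took 3.55% to 7.18% of them. Levels are given as CPM, a feature's share of the library total after TMM scaling, which sets a library by the bulk of its features; TMM factors were 0.843 to 0.881 at 0 h and 0.995 to 1.11 later, so the same percent of total counts gives a higher CPM at 0 h than later. Changes were tested with edgeR's quasi-likelihood test on the counts of all 5615 features that passed its filter on low counts, with Benjamini-Hochberg adjustment over them, and a feature is called at an adjusted p under 0.05. Of the 81, 73 were tested (41 box C/D, 29 box H/ACA and 3 spliceosomal). Whether the 3 libraries of a time are separate cultures is not stated in the labels. The p-values measure the spread between these samples alone, and that spread may be technical. Members at 10 CPM or more varied more between libraries of a time than nuclear reading frames did, with a median coefficient of variation of 12.2% to 25.2% against 4.46% to 7.94%. Their median standard error on the log2 scale was 0.20 for each comparison, against 0.08 for nuclear reading frames. Within a time, the members tended to rank the libraries alike: the 6 h replicate 1 held the highest of the 3 values for 59 of 73 members and the 3 h replicate 1 for 50, and the 6 h replicate 3 held the lowest for 56 and the 1 h replicate 1 for 54. Counts of calls are given without a library where leaving it out moved them. Because a library holds bulk RNA of a whole culture, less RNA per cell and fewer cells with the RNA cannot be told apart.

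The 8 features left untested were snR53, snR58, snR59, snR65 and snR72, with 0 to 9 counts in each library, snR7-L with 3 to 17, and snR60 and snR7-S at 0 in every library. snR7-S lies wholly within snR7-L, sharing all its 179 bases, and snR60 shares 49 of its 104 bases with an exon of YJL047C-A, which had 26 to 107 counts. How reads that cover several features were counted is not stated in the sources used here, and the low or absent counts of U5 and snR60 are therefore not read as levels. snR10 shares 216 of 245 bases with the reading frame YGL088W, and snR17a shares 78 of 490 bases with IRC13. Unlike YJL047C-A, neither of these is among the 6216 features of the deposited counts. Whether they were in the annotation used for counting is not stated, so the values of snR10 and snR17a are given with this limit. How reads that match both U3 copies were counted is not stated either, and the values of that pair are uncertain. snR17a and snR17b were identical at 81.5% of aligned positions.

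A few long members held most of the counts. snR17a (U3) held 19.89% of all snR counts, snR30 17.32%, snR86 9.15%, snR37 7.56% and snR19 7.22%, together 61.14%. Per length, the level followed the length of the RNA across the classes. The median over the 4 times was 34.2 CPM per kb for the 44 box C/D features under 200 bases and 6345 CPM per kb for the 3 longer ones, and it was 548 CPM per kb for the 12 box H/ACA features under 200 bases and 2162 CPM per kb for the 17 of 200 bases or more. RNA was purified on silica columns of a kind known to retain short RNAs poorly, so the levels of short and long members are not comparable, and the part of length in recovery was not tested. Changes between times compare a feature with itself, but recovery may also differ between libraries, and its part in the changes was not tested.

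**Figure D1:**
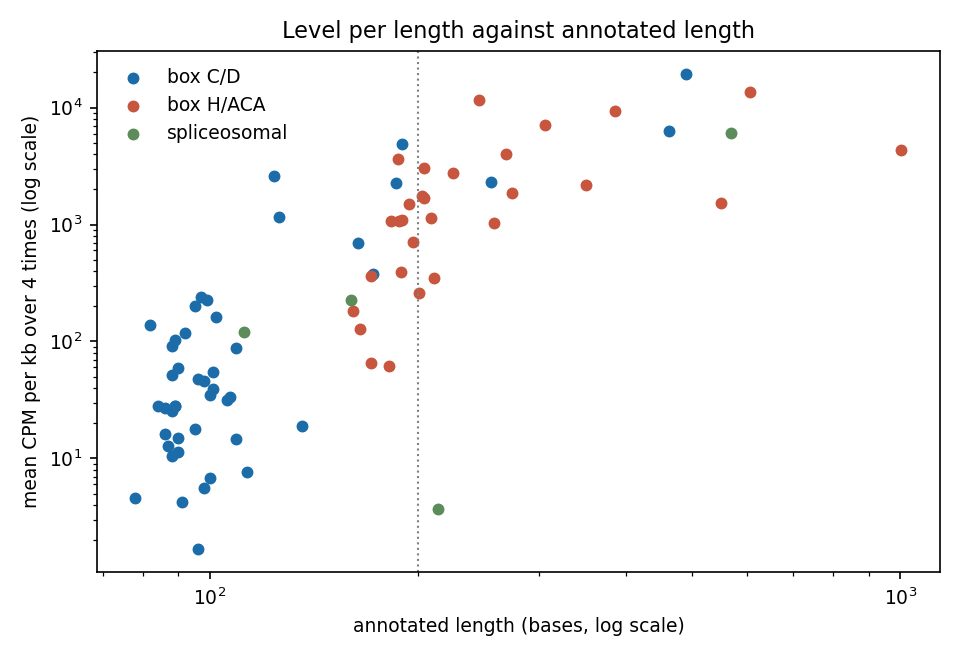
Mean level of each member with counts in CPM per kb (log axis) against its annotated length in bases (log axis), coloured by class; the dotted line marks 200 bases. Box C/D members under 200 bases have a median of 34.2 CPM per kb, and box H/ACA members of 200 bases or more 2162.

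As a share of all counts, snR features held 4.66% ± 0.29 at 0 h, 4.20% ± 0.57 at 1 h, 4.05% ± 0.41 at 3 h and 6.00% ± 1.06 at 6 h (SD, n = 3). The 6 h libraries held 7.18%, 5.67% and 5.14%, each above the 4.35% to 4.94% at 0 h. Box C/D features held 1.44% ± 0.17, 1.34% ± 0.12, 1.34% ± 0.14 and 1.92% ± 0.36 at 0, 1, 3 and 6 h (SD, n = 3). Box H/ACA features held 2.92% ± 0.16, 2.60% ± 0.43, 2.41% ± 0.24 and 3.55% ± 0.57 at the same times. Spliceosomal features held 0.307% ± 0.013, 0.259% ± 0.021, 0.303% ± 0.037 and 0.522% ± 0.137. At 3 h the box H/ACA shares (2.25% to 2.69%) lay below those at 0 h (2.73% to 3.03%), while those of box C/D (1.20% to 1.49%) overlapped those at 0 h (1.33% to 1.63%).

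On the CPM scale, where the same counts are set against the bulk of features, the summed levels of the box C/D and box H/ACA classes were lowest at 3 h and those of the spliceosomal features at 1 h. Summed box H/ACA levels were 33810 ± 2514, 25970 ± 4407, 22160 ± 2535 and 33540 ± 6391 CPM at 0, 1, 3 and 6 h (SD, n = 3). Summed box C/D levels were 16650 ± 1978, 13400 ± 1267, 12280 ± 1516 and 18150 ± 3918 CPM. Summed spliceosomal levels were 3559 ± 205, 2591 ± 219, 2788 ± 382 and 4939 ± 1451 CPM. U3 alone held 1.14% ± 0.15 of all counts at 0 h. Without U3, box C/D features held 0.230% ± 0.025 at 3 h against 0.296% ± 0.046 at 0 h, and without snR30 box H/ACA features held 1.75% ± 0.16 at 3 h against 2.09% ± 0.12 at 0 h. The sums were given no test.

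**Figure D2:**
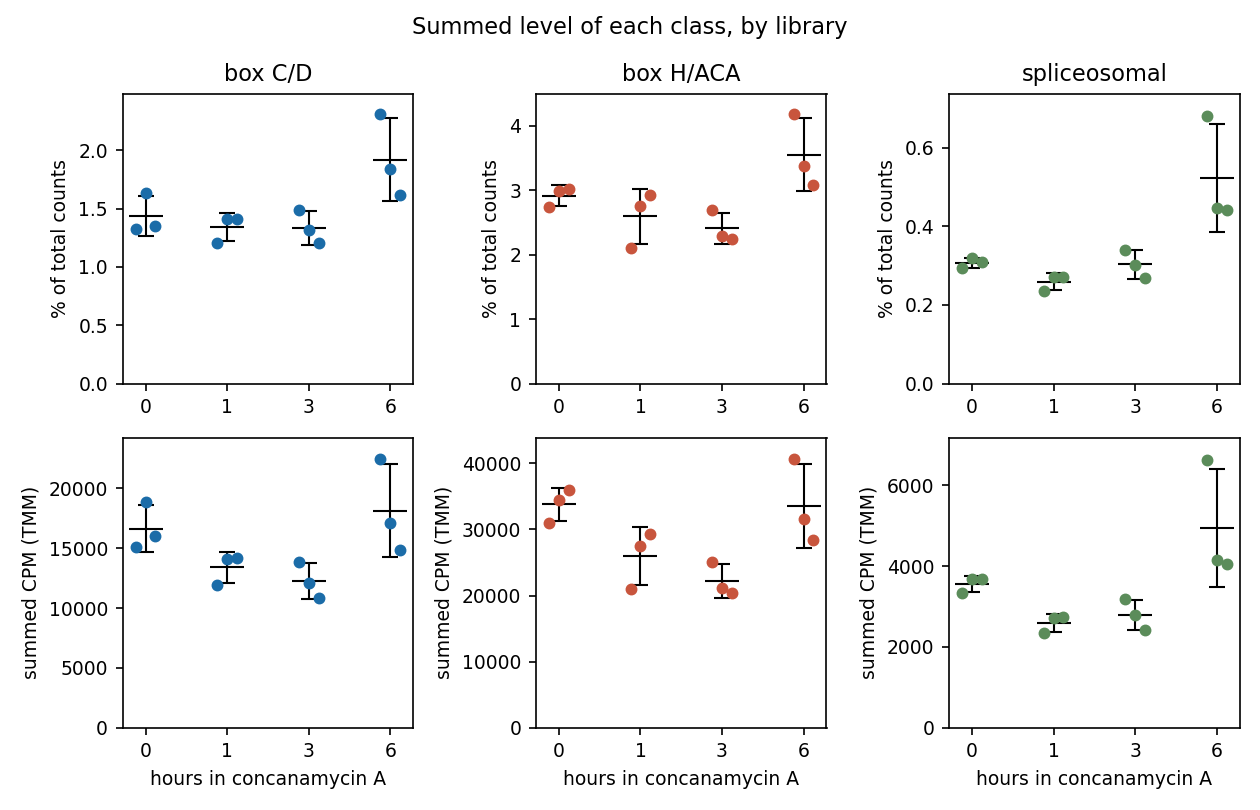
Summed level of each class in every library (points) with mean and SD (bars, n = 3), as percent of total counts (top) and as TMM-scaled CPM (bottom), by hours in concanamycin A. On both scales box H/ACA is lowest at 3 h, and the 6 h replicate 1 is the highest point of each panel.

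At 1 h, 1 snR feature rose and 10 fell relative to 0 h, out of 73 tested. Of all features tested 47.9% were called, 24.5% higher and 23.4% lower. The median log2 fold change was -0.34 over the 73, against 0.00 over all features, and 66 of 73 values were below 0. snR52, a guide for both subunits, was at 16.9, 15.1 and 11.6 CPM at 1 h against 8.04, 7.79 and 6.97 CPM at 0 h, with no overlap. The log2 fold change of 0.93 (SE 0.29, adjusted p = 0.018) was lost without 0 h replicate 2, 0 h replicate 3, 1 h replicate 1 or 1 h replicate 2, at adjusted p-values of 0.051 to 0.070. It did not pass the test at 3 h (0.30, adjusted p = 0.43) or 6 h (0.61, adjusted p = 0.088). snR76, a large-subunit guide, was at 6.27, 6.24 and 5.57 CPM at 1 h against 11.4, 13.03 and 11.8 CPM at 0 h, again with no overlap. The log2 fold change was -1.001 (SE 0.14, adjusted p = 7.5e-05), and at 3 h it was higher than at 1 h by 0.71 (adjusted p = 0.0019).

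The other falls at 1 h, with at least 10 CPM in the higher group, were of snR13 (-0.47), snR36 (-0.46), snR84 (-0.45), snR83 (-0.39) and snR10 (-0.27). Leaving out a single library ended each of these calls at least once, among them that of snR84 without 0 h replicate 3 (adjusted p = 0.054), and those of snR13, snR36, snR83 and snR10 without 1 h replicate 1 (adjusted p from 0.081 to 0.13). Of the 10, 6 were box C/D and 4 box H/ACA, and the last number was 1 without 0 h replicate 3 and 11 without 6 h replicate 1. Those below 10 CPM were snR24, snR73, snR56 and snR55, of which snR56 is named after its values were seen and the others lie in host introns or clusters described below. Scaled by total counts, 1 rose and 4 fell, beside 45.9% of all features higher and 10.7% lower. By that scaling the median of all features moved to 0.21 and that of the snR features to -0.13. Without 6 h replicate 1, which enters only through the shared spread, 22 fell, and without 1 h replicate 1 the number was 5. No snR feature rose without 0 h replicate 2, 0 h replicate 3 or 1 h replicate 2 in edgeR, and without 1 h replicate 1 snR66 rose (0.85, adjusted p = 0.046) and snR52 did not. With all libraries 1 rose at an unadjusted p under 0.05 and 1 in DESeq2.

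At 3 h, 39 of 73 snR features fell and 4 rose relative to 0 h. Of all features 50.8% were called, 26.3% higher and 24.5% lower. Of the box H/ACA features 25 of 29 fell and none rose in edgeR. At an unadjusted p under 0.05 and in DESeq2, 0 rose and 26 fell. All 29 had a log2 fold change below 0, from -1.48 to -0.39, with a median of -0.69, and all 29 were below 0 under total-count scaling too. Of the box C/D features 14 of 41 fell and 4 rose, with a median of -0.35. Of the 3 spliceosomal features none passed the test in edgeR, 1 was lower at an unadjusted p under 0.05 and 2 were lower in DESeq2. The difference between the classes was not tested.

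Within box C/D the 3 h change differed with level. The 15 box C/D features at 10 CPM or more had a median of -0.47 with 10 falling and 0 rising, and the 26 below 10 CPM a median of 0.01 with 4 falling and 4 rising. All box H/ACA features were at 10 CPM or more, with a median of -0.69. Across the 73, Spearman's rho of the 3 h change was -0.52 with mean CPM and -0.48 with length. Within the 41 box C/D features it was -0.55 and -0.37, and within the 29 box H/ACA features 0.09 and 0.01. For 6 h against 3 h, rho was 0.68 with mean CPM and 0.57 with length across the 73. It was 0.54 and 0.31 within box C/D and 0.52 and 0.19 within box H/ACA. These points share their libraries. The part of level and length in the difference between classes was not tested.

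**Figure D3:**
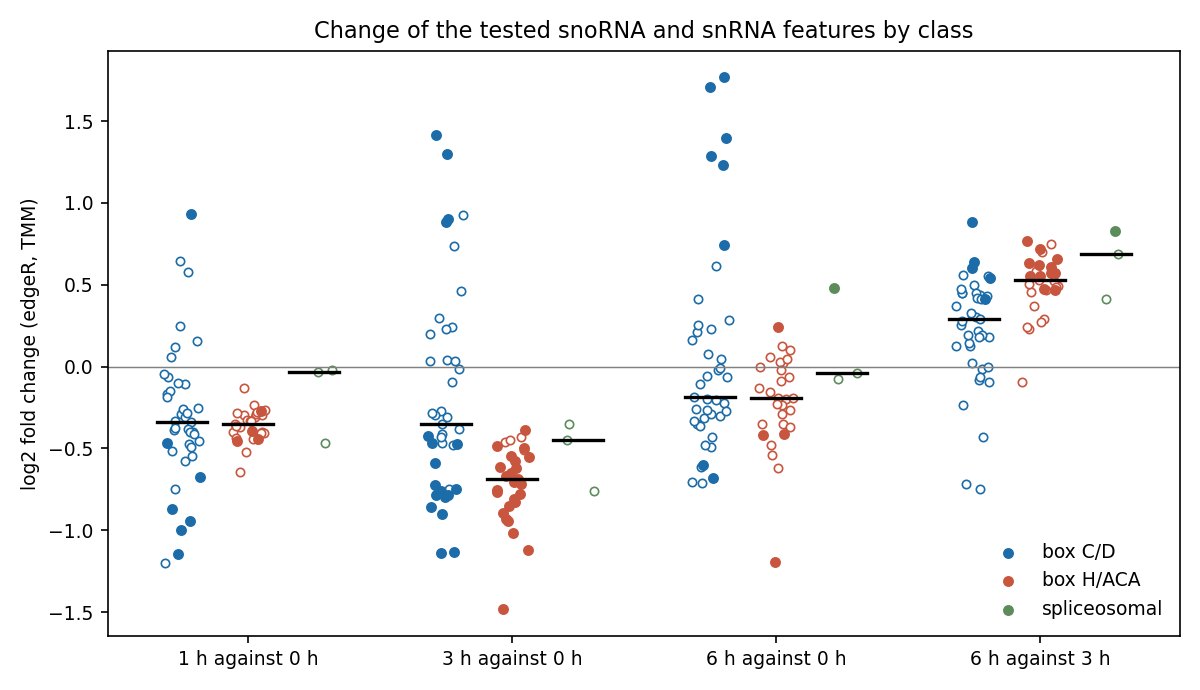
Log2 fold change of each of the 73 tested members in 4 comparisons, by class; filled points passed the test (adjusted p under 0.05), open points did not, and bars are class medians. At 3 h against 0 h every box H/ACA point lies below 0 (median -0.69), and at 6 h against 3 h 28 of 29 lie above 0 (median 0.53).

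Scaled by total counts, 16 fell and 6 rose at 3 h, of which 11 falls were in the box H/ACA class. Of all features 8.87% fell and 63.7% rose under total-count scaling. By that scaling the median of all features moved to 0.35, that of the snR features was -0.16 and that of the box H/ACA class -0.35. Without 3 h replicate 3, the number that fell was 20, with 15 in the box H/ACA class and 5 in box C/D. Without 6 h replicate 1 it was 44.

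The largest falls at 3 h, with at least 10 CPM in the higher group, were of snR44, snR45, snR189, snR35, snR191 and snR5. snR44, a box H/ACA snoRNA that guides pseudouridylation in both subunits, was at 46.6, 46.7 and 37.4 CPM at 3 h against 85.4, 125 and 156 CPM at 0 h. The change was -1.48 on the log2 scale (SE 0.28, adjusted p = 0.0018), and the groups did not overlap. snR45, a box C/D snoRNA that guides acetylation of a cytosine in the small-subunit rRNA, was at 43.1, 49.1 and 34.3 CPM at 3 h against 73.3, 101 and 104 CPM at 0 h. On the log2 scale this is a change of -1.14 (SE 0.30, adjusted p = 0.010). snR4, the other acetylation guide, fell by 0.47 on the log2 scale (adjusted p = 0.014), a call lost without 3 h replicate 3 (adjusted p = 0.056) and under total-count scaling (-0.13).

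snR189, a guide for both subunits, was at 49.0, 51.4 and 44.6 CPM at 3 h against 67.7, 106 and 144 CPM at 0 h. That corresponds to -1.12 on the log2 scale (SE 0.28, adjusted p = 0.0074). The spread at 0 h was wide, yet the groups did not overlap. For snR35, annotated to the hypermodified uridine of the small subunit, the log2 fold change was -1.02 (adjusted p = 0.022). For snR191, which has 2 targets in the large subunit, it was -0.95 (adjusted p = 0.0040). For snR5, another large-subunit guide, it was -0.93 (adjusted p = 0.013). Of these 6, snR35 alone did not pass under total-count scaling (adjusted p = 0.057), nor without 0 h replicate 2 (adjusted p = 0.051), 0 h replicate 3 (0.075) or 3 h replicate 3 (0.073).

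Between 3 h and 6 h the direction turned. Relative to 3 h, 19 of 73 snR features rose at 6 h and 0 fell in edgeR. Of all features 42.7% were called, 21.0% higher and 21.7% lower. At an unadjusted p under 0.05 the counts were 35 and 1, and in DESeq2 27 and 0. By class, 13 of 29 box H/ACA, 5 of 41 box C/D and 1 of 3 spliceosomal features rose, with medians of 0.53, 0.29 and 0.68. By level, 17 of 47 features at 10 CPM or more rose and 2 of 26 below 10 CPM. Under total-count scaling 20 rose and 0 fell, beside 17.2% of all features higher and 24.0% lower. The number that rose with TMM scaling rests on single libraries. It was 8 when 6 h replicate 1 or 3 h replicate 3 was left out, 10 when 3 h replicate 2 was, and 35 when 6 h replicate 3 was. Without 0 h replicate 1 or 0 h replicate 3, 1 fell. The largest rises, with at least 10 CPM in the higher group, were of snR39 (0.88), snR19 (0.83) and snR9 (0.76, adjusted p = 0.031), a box H/ACA guide to the large subunit. The call of snR9 was lost without 3 h replicate 2 (adjusted p = 0.074), 3 h replicate 3 (0.096) or 6 h replicate 1 (0.11).

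At 6 h against 0 h, 8 snR features rose and 5 fell. Of all features 61.9% were called, 33.0% higher and 28.9% lower. Their median was -0.19, against 0.05 over all features. Of the 39 that fell at 3 h, 33 were not called at 6 h, 5 fell at 6 h too and snR10 rose. The 5 were snR44 (-1.19), snR64 (-0.68), snR73 (-0.60), snR31 (-0.42) and snR81 (-0.41), and snR64 is named after its values were seen. snR44 was at 78.0, 44.3 and 36.8 CPM at 6 h against 85.4, 125 and 156 CPM at 0 h, with no overlap, and kept its call in all 18 alternatives. snR81, which guides pseudouridylation of the large subunit and of the U2 snRNA, was at 57.9, 50.4 and 42.7 CPM at 6 h against 48.7, 76.0 and 77.0 CPM at 0 h, and the groups overlapped. Besides snR44, the calls of these members were each lost when 0 h replicate 2, 6 h replicate 2 or 6 h replicate 3 was left out (adjusted p from 0.060 to 0.16).

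By total counts 13 rose and 1 fell at 6 h, beside 58.4% of all features higher and 14.4% lower. That scaling moved the median of the snR features to 0.11 and that of all features to 0.34, so the snR median stayed below that of all features. Without 6 h replicate 1, 5 rose and 23 fell. With 6 h replicate 2 or 6 h replicate 3 left out, 1 fell. With 0 h replicate 1 left out, 12 fell, and with 0 h replicate 2 left out, 5 rose and 2 fell.

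At 3 h against 1 h, 8 snR features rose and 5 fell. Of all features 34.5% were called, 16.9% higher and 17.6% lower. All 8 were box C/D features, and 4 of the 5 that fell were box H/ACA. The largest falls, with at least 10 CPM in the higher group, were of snR44 (-0.84, adjusted p = 0.046), the box C/D guide snR47 (-0.75, adjusted p = 0.018) and the box H/ACA guide snR3 (-0.61, adjusted p = 0.047). All of these were lost without 1 h replicate 2 (adjusted p from 0.069 to 0.10), among other libraries. By total counts 12 rose and 1 fell, beside 30.9% of all features higher and 9.83% lower. The falls numbered 17 without 6 h replicate 1 and 10 without 6 h replicate 3, 2 without 0 h replicate 2, 3 h replicate 1, 3 h replicate 2 or 6 h replicate 2, and 0 without 1 h replicate 2, 1 h replicate 3 or 3 h replicate 3. The rises numbered 5 without 1 h replicate 1 or 3 h replicate 1.

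The box C/D features that rose at 3 h, snR39, snR66, snR68 and snR54, all rose at 6 h too, and snR66 and snR68 are named after their values were seen. snR39 was at 4.74, 3.83 and 6.84 CPM at 0 h, 3.55, 5.56 and 5.47 CPM at 1 h, 10.1, 8.48 and 9.64 CPM at 3 h and 18.15, 17.97 and 16.0 CPM at 6 h. Each library at 3 h exceeded all at 0 h and 1 h, and each at 6 h exceeded all at 3 h. At 6 h it was 3.40-fold higher than at 0 h (log2 1.77, SE 0.19, adjusted p = 3.2e-06), at 3 h the log2 fold change was 0.88 (SE 0.20, adjusted p = 0.0028), and at 6 h against 3 h it was 0.88 (SE 0.17, adjusted p = 0.0013). These 3 calls held under each of the 18 alternatives run. The neighbouring snR39B, a box C/D snoRNA with a guide to position 805 and 67.6% identity to snR39, did not pass the test, with log2 fold changes of -0.02 at 3 h and 0.28 at 6 h (adjusted p = 0.30).

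snR66 was at 3.37, 2.44 and 2.56 CPM at 3 h and 4.44, 3.29 and 3.36 CPM at 6 h against 1.03, 0.894 and 1.47 CPM at 0 h. The log2 fold change was 1.30 (SE 0.32, adjusted p = 0.0050) at 3 h and 1.71 (SE 0.31, adjusted p = 0.00033) at 6 h. snR68 was at 3.26, 3.18 and 4.6 CPM at 3 h and 3.23, 3.70 and 4.11 CPM at 6 h against 2.17, 1.15 and 0.670 CPM at 0 h. No library at 3 h or 6 h fell within the 0 h range for either. For snR68 the log2 fold change was 1.41 (adjusted p = 0.0021) at 3 h and 1.40 (adjusted p = 0.0017) at 6 h. snR54 was at 1.63, 1.49 and 2.03 CPM at 3 h and 1.82, 2.88 and 1.84 CPM at 6 h against 0.928, 1.02 and 0.804 CPM at 0 h. Its log2 fold change of 0.90 at 3 h (adjusted p = 0.030) did not hold in DESeq2 (adjusted p = 0.12) or without 0 h replicate 1, 0 h replicate 2, 0 h replicate 3 or 3 h replicate 3 (adjusted p from 0.059 to 0.12), whereas that of 1.23 at 6 h (adjusted p = 0.0033) held in all 18 alternatives.

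These are rare features: snR54 had 6 to 28 counts in a library, snR66 7 to 44, snR68 5 to 52 and snR39 30 to 180. Counts at this level cannot be told apart from reads of unspliced host transcripts, excised introns or neighbouring transcripts that cover the same bases. At 6 h the box C/D features snR51 (0.74) and snR71 (1.29) also rose. The call of snR51 was lost without 0 h replicate 2 (adjusted p = 0.063) and also if 6 h replicate 3 was left out (0.056), and that of snR71 without 0 h replicate 2 (0.093), 6 h replicate 1 (0.098) or 6 h replicate 2 (0.078). snR71, with 4 to 26 counts and named after its values were seen, had groups that overlapped.

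**Figure D4:**
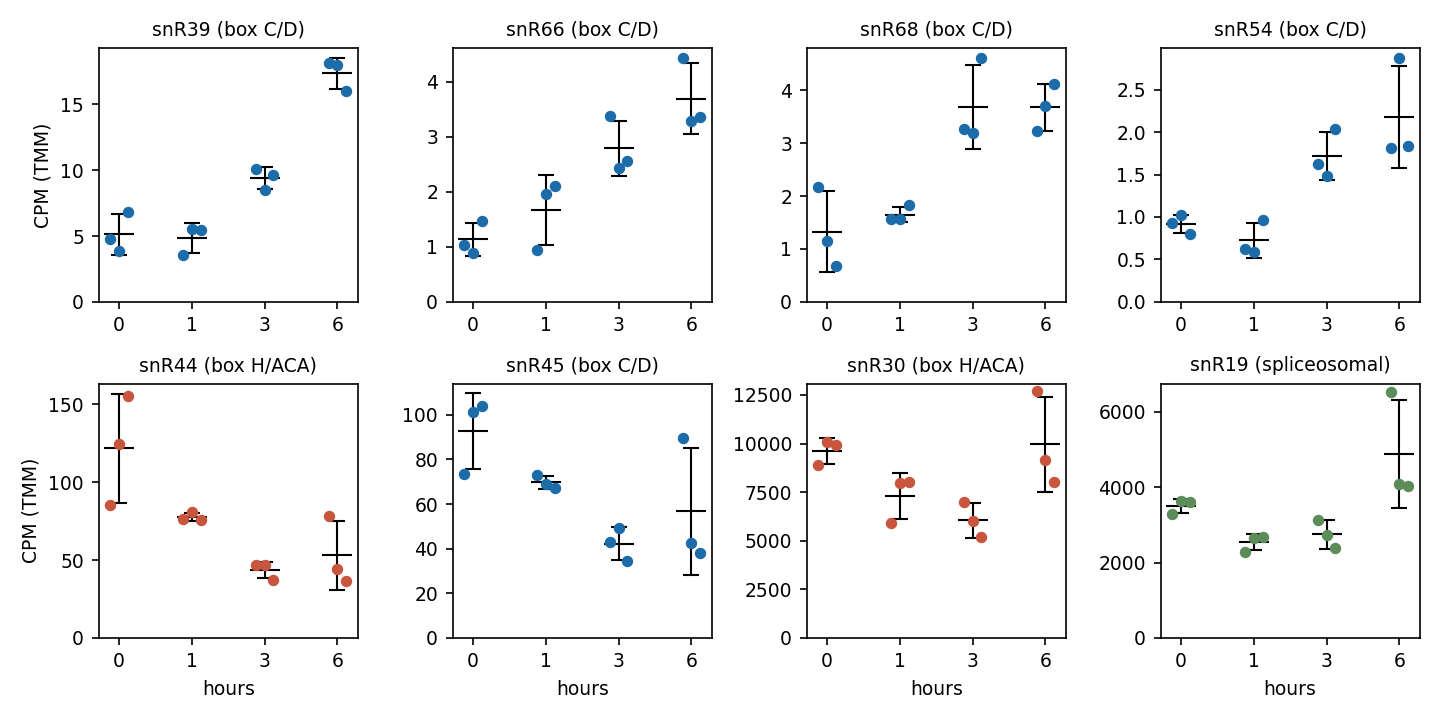
TMM-scaled CPM of 8 members in each library (points) by hours in concanamycin A, with mean and SD (bars, n = 3). The upper row shows the box C/D members that were higher at 3 h and 6 h than at 0 h, with snR39 at 16.0 to 18.15 CPM at 6 h; the lower row shows members that are lower at 3 h, or, for snR19, not called there, and in each of its panels 6 h replicate 1 is the highest 6 h point.

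Among the snoRNAs that act in cleavage of the ribosomal precursor, U3, U14, snR30 and snR10, each had its lowest mean CPM at 3 h. As a share of total counts U3 held 1.07% ± 0.11 at 1 h and 1.11% ± 0.12 at 3 h (SD, n = 3), and snR10 0.252% at both times. snR30 was at 6972, 5994 and 5186 CPM at 3 h and 12700, 9170 and 7998 CPM at 6 h, against 8869, 10080 and 9934 CPM at 0 h. This amounted to a log2 fold change at 3 h of -0.67 (SE 0.18, adjusted p = 0.013), at 6 h of 0.05 (adjusted p = 0.83), and at 6 h against 3 h of 0.72 (adjusted p = 0.011). Under total-count scaling the fall at 3 h did not pass (-0.34, adjusted p = 0.085). The 3 h values lie below all 0 h values, and those of 6 h on both sides of them.

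snR10 was at 2506, 2151 and 2296 CPM at 3 h and 3803, 3600 and 3373 CPM at 6 h, against 2762, 3323 and 3031 CPM at 0 h. Its log2 fold changes were -0.39 (adjusted p = 0.0046) at 3 h and 0.24 (adjusted p = 0.041) at 6 h, with an SE of 0.09. The 3 h call was lost under total-count scaling (-0.06), and the 6 h call in 9 of 18 alternatives, at adjusted p-values of 0.051 to 0.15. They were DESeq2, its size factors, the block, and leaving out 0 h replicate 1, 0 h replicate 3, 1 h replicate 2, 3 h replicate 3, 6 h replicate 1 or 6 h replicate 2. It rose at 6 h against 3 h by 0.63 (adjusted p = 0.00028) and kept that call in all 18. For snR128 (U14) the log2 fold change was -0.78 (SE 0.24, adjusted p = 0.021) at 3 h and -0.22 (adjusted p = 0.44) at 6 h. The 3 h call was lost without 0 h replicate 2 (adjusted p = 0.068), when 3 h replicate 3 was left out (0.073) and by total counts (0.099). Both U3 copies missed the threshold at 3 h, with log2 fold changes of -0.35 for snR17a (adjusted p = 0.075) and -0.47 for snR17b (adjusted p = 0.056). Both rose at 6 h against 3 h, snR17a by 0.60 (adjusted p = 0.0088) and snR17b by 0.54 (adjusted p = 0.038). The snR17b call was lost in 6 of 18 alternatives, each of them a library left out, 6 h replicate 1 (adjusted p = 0.12) and 3 h replicate 3 (0.12) among them.

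Of the spliceosomal RNAs, U1 (snR19) was at 3281, 3625 and 3604 CPM at 0 h, 2292, 2649 and 2669 CPM at 1 h, 3135, 2737 and 2375 CPM at 3 h and 6536, 4098 and 4023 CPM at 6 h. All 6 h libraries lie above all others, and 1 of them far above. The log2 fold change was 0.48 (SE 0.18, adjusted p = 0.038) at 6 h against 0 h and 0.83 (SE 0.18, adjusted p = 0.0046) at 6 h against 3 h. Without 6 h replicate 1 the first became 0.21 (adjusted p = 0.099), and it also missed the threshold when 0 h replicate 1, 2 or 3 was left out (adjusted p from 0.085 to 0.11). The second held in all 18 alternatives. U4 (snR14) averaged 39.9 ± 11.9 CPM at 0 h, 38.6 ± 4.84 at 1 h, 29.1 ± 2.196 at 3 h and 38.5 ± 14.9 at 6 h (SD, n = 3), and U6 (snR6) 15.4 ± 3.58, 15.0 ± 2.13, 9.02 ± 1.66 and 14.4 ± 7.06 at the same times. Neither passed the test in any of the 5 comparisons; the nearest was U6 at 3 h against 0 h, where the change was -0.76 on the log2 scale (SE 0.31, adjusted p = 0.063). The U2 snRNA, LSR1, rose by 0.56 at 6 h against 3 h (adjusted p = 0.028) and missed the threshold at 6 h against 0 h (0.43, adjusted p = 0.056).

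The 8 snoRNAs that lie in introns allowed each to be set beside its host gene. A spliced host transcript and its intron come from the same precursor, and a snoRNA is trimmed from the intron after splicing. At 6 h against 0 h, 7 of 8 hosts fell and none rose in edgeR, with 0 rises at an unadjusted p under 0.05 or in DESeq2 and 1 under total-count scaling or without 0 h replicate 3, while 2 of the 7 tested snoRNAs rose and 1 fell. Of all features 33.0% rose and 28.9% fell at that time. RPL7A, which encodes a large-subunit ribosomal protein, was at 409, 474 and 463 CPM at 6 h against 1113, 1115 and 1224 CPM at 0 h. The log2 fold change was -1.36 (adjusted p = 4.9e-10), beside 1.77 for snR39 in its intron. The change of IMD4, a gene of the IMP dehydrogenase family, was -0.68 (adjusted p = 1.9e-06), beside 1.23 for snR54. The pair of snR44 and RPS22B, a small-subunit ribosomal protein gene, fell on both sides, with log2 fold changes of -1.19 for snR44 and -1.65 for RPS22B (adjusted p = 1.4e-09 for the host).

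At 3 h, 6 of 8 hosts fell and none rose in edgeR, at an unadjusted p under 0.05 or in DESeq2, beside 24.5% of all features lower and 26.3% higher, whereas under total-count scaling 4 fell and 2 rose, and 2 rose without 0 h replicate 3. At that time RPL7A was at -1.10, IMD4 at -0.21 and RPS22B at -1.70, and IMD4 turned to 0.13 under total-count scaling. NOG2, a ribosome assembly GTPase, was not called at 3 h (0.24, adjusted p = 0.19), beside a fall of snR191 by 0.95. ASC1, a ribosome-associated protein gene, was at -1.60 at 3 h, beside -0.41 for snR24 (adjusted p = 0.23), though at 1 h both fell, snR24 by 1.15 and ASC1 by 1.03. snR18 fell at 3 h (-0.47, adjusted p = 0.044) beside 0.05 for EFB1, and this snR18 call was lost in 9 of 18 alternatives (adjusted p = 0.14 without 3 h replicate 3). snR38 was not called beside falls of TEF4 at 3 h (-0.35) and 6 h (-0.93); both hosts encode translation elongation factors. RPL7B fell by 2.68 at 1 h, 2.10 at 3 h and 1.38 at 6 h, and its snR59, with 0 to 8 counts, was not tested. The difference within a pair was not tested.

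**Figure D5:**
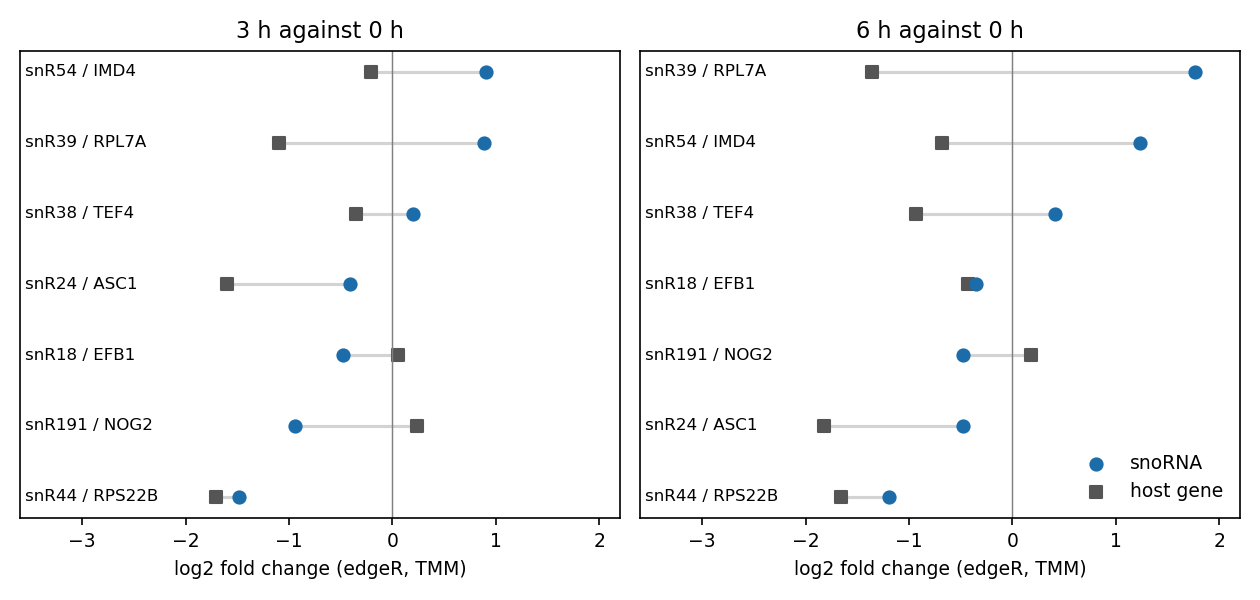
Log2 fold change of 7 intron-encoded snoRNAs (circles) and their host genes (squares) at 3 h against 0 h (left) and 6 h against 0 h (right), joined by a line for each pair and ordered by the snoRNA. snR39 and RPL7A lie farthest apart at 6 h (1.77 and -1.36), and snR44 and RPS22B are both below 0 at both times.

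Other members are cut from shared precursors, and there the members of a cluster did not always move alike. The pair of snR190 and snR128 on chromosome X fell equally at 3 h, with log2 fold changes of -0.78 each (adjusted p = 0.014 for snR190). The snR190 call was lost in 2 of 18 alternatives, among them without 3 h replicate 3 (adjusted p = 0.052). In the cluster of snR41, snR70 and snR51 on chromosome XVI, snR70 fell at 3 h (-0.90, adjusted p = 0.016; 0.053 without 0 h replicate 3 and 0.056 without 3 h replicate 3), snR41 was at -0.43 (adjusted p = 0.12) and snR51 at 0.46 (adjusted p = 0.11). The 3 h call of snR70 was lost in 3 of 18 alternatives. At 6 h snR51 rose (adjusted p = 0.012) and snR70 was at -0.43 (adjusted p = 0.17). Mean levels at 0 h were 914 CPM per kb for snR70, 234 for snR41 and 27.97 for snR51.

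In the cluster of 7 on chromosome XIII, snR72 to snR78, snR73 and snR76 fell at 1 h and snR73 and snR75 at 3 h, none rose against 0 h, and snR72 was not tested. Adjusted p-values of its 3 h falls were 0.014 for snR73 and 0.048 for snR75. Without 3 h replicate 3 they were 0.056 and 0.12, and the snR75 call was lost in 11 of 18 alternatives. Against 1 h, snR76 and snR77 rose at 3 h (0.71 and 0.80). On chromosome XII snR55 fell at 1 h (-0.67, adjusted p = 0.0049) and snR57 and snR61 were not called, and on chromosome V snR67 was not called and snR53 not tested. Differences within a cluster were not tested.

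Grouped by annotated target, at 3 h 17 of 18 box H/ACA guides to the large subunit and 5 of 6 to the small subunit fell, with medians of -0.73 and -0.63. At 6 h against 3 h, 11 of 18 and 1 of 6 rose, with medians of 0.57 and 0.38. Of all features 24.5% fell and 26.3% rose at 3 h against 0 h, and 21.0% rose at 6 h against 3 h. Among box C/D features, 8 of 22 annotated to the large subunit fell at 3 h and 3 rose, with a median of -0.34. Of 13 annotated to the small subunit, 2 fell and 1 rose, with a median of -0.31. The 13 include both copies of U3, whose notes name the small-subunit processome and no guided position. Members annotated for both subunits, or for none, stand in neither group.

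Genes for the proteins of the particles were set beside the RNAs, from lists chosen by function. The core proteins of both classes were lower at 6 h. NOP1, NOP56, NOP58 and SNU13 of the box C/D particle all fell at 6 h against 0 h, with log2 fold changes of -0.39, -0.86, -0.70 and -0.61, and so did CBF5, GAR1, NHP2 and NOP10 of the box H/ACA particle, with -0.92, -0.91, -0.65 and -0.34. Of all features 28.9% fell at 6 h. All 8 also fell between 3 h and 6 h, as did 21.7% of all features. CBF5, the pseudouridine synthase, was at 212, 226 and 214 CPM at 6 h and 293, 292 and 284 CPM at 3 h, against 396, 415 and 423 CPM at 0 h. At 1 h 3 of 4 box C/D and 4 of 4 box H/ACA core genes fell, and at 3 h 3 of 4 of each. Of all features 23.4% fell at 1 h and 24.5% at 3 h. Under total-count scaling 3 of 4 of each fell at 6 h, and at 3 h 0 of 4 and 1 of 4 fell and 2 of 4 and 1 of 4 rose, so the 3 h direction rests on the scaling.

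Of 9 factors that assemble the particles, 5 rose at 3 h and 0 fell in edgeR, at an unadjusted p under 0.05 or in DESeq2, beside 26.3% of all features higher and 24.5% lower. They were BCD1 (0.65), NAF1 (0.59), SHQ1 (0.51), RVB1 (0.29) and RSA1 (0.26), the last named after its values were seen, of which BCD1 acts on box C/D snoRNAs and NAF1 and SHQ1 on box H/ACA particles. Without 0 h replicate 2 the number was 3, and under total-count scaling all 9 rose, as did 63.7% of all features. At 6 h 3 rose and RVB2 fell (-0.26, turning to 0.04 by total counts), beside 33.0% and 28.9% of all features, and 1 rose without 0 h replicate 1. Of 17 genes for termination, trimming and turnover of snoRNAs, 9 rose at 3 h and 2 fell, beside the same 26.3% and 24.5% of all features. Under total-count scaling 15 rose and 1 fell. Those that rose most were AIR2 (0.74) of the TRAMP complex, TGS1 (0.60), which hypermethylates the cap, PCF11 (0.55) and NRD1 (0.49), which act in termination, and those that fell were XRN1 (-0.56) and LHP1 (-0.21). NRD1 is named after its values were seen. Without 0 h replicate 2, 6 rose. The LHP1 value turned to 0.12 by total counts. RNT1, the nuclease that opens many snoRNA precursors and named likewise, rose by 0.46 at 3 h (adjusted p = 0.00082) and was at -0.11 at 6 h (adjusted p = 0.31).

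Of 6 proteins particular to the U3 particle 3 rose at 3 h, LCP5 (0.84), IMP3 (0.60) and IMP4 (0.34), 5 without 0 h replicate 3, and 0 fell in edgeR, at an unadjusted p under 0.05 or in DESeq2. Of all features 26.3% rose and 24.5% fell at 3 h, and 33.0% rose and 28.9% fell at 6 h. At 6 h 3 fell, MPP10 (-0.30), ECM16 (-0.24) and IMP4 (-0.15), and none rose in edgeR, at an unadjusted p under 0.05 or in DESeq2. Under total-count scaling none of the 6 fell at 6 h and 3 rose. Of 44 spliceosomal proteins, 12 (27.3%) rose and 1 (2.27%) fell at 3 h and 13 (29.6%) rose and 5 (11.4%) fell at 6 h, so that the shares that rose were near those of all features. Those that rose at 6 h included AAR2 (0.78), which acts in U5 assembly, MUD1 (0.62) of the U1 particle and LEA1 (0.61) of the U2 particle. Under total-count scaling 33 rose and 0 fell at 3 h and 32 rose and 0 fell at 6 h, where 63.7% and 58.4% of all features rose. At 3 h 7 rose without 0 h replicate 1 and 3 fell without 0 h replicate 3, and at 6 h 8 fell without 0 h replicate 3 and 3 without 6 h replicate 3.

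The 5 other stable non-coding RNAs (SCR1 of the signal recognition particle, RPR1 of RNase P, NME1 of RNase MRP, TLC1 of telomerase and LSR1) were set beside the snR features. None was called higher at 3 h against 0 h in edgeR, at an unadjusted p under 0.05 or in DESeq2, and 3 fell, namely RPR1 (-0.64), NME1 (-0.58) and TLC1 (-0.54). Of all features 24.5% fell and 26.3% rose at 3 h. At 6 h against 3 h 4 rose, all but TLC1, beside 21.0% of all features. Without 3 h replicate 2, the number was 2. Under total-count scaling 1 of the 5 fell at 3 h against 0 h, and 4 rose at 6 h against 3 h. SCR1 held 4.92% ± 0.52 of all counts at 0 h, 4.39% ± 0.49 at 1 h, 4.95% ± 0.44 at 3 h and 6.95% ± 0.75 at 6 h (SD, n = 3). In the 6 h libraries it held 7.81%, 6.56% and 6.47%, and replicate 1 was the highest, as for the snR share. What part shared recovery of non-coding RNA has in the changes of the snR features was not tested.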

How the data were processed

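RNA of wild-type yeast was sequenced in 12 libraries, 3 at each of 0, 1, 3 and 6 h. Per the labels' protocols, RNA was purified on RNeasy columns and libraries were made with a TruSeq stranded kit after rRNA removal by Ribo-Zero Gold. The deposited values are raw counts per feature made by the authors; per the submitters' processing notes STAR 2.5.2b, featureCounts 1.5.1 and the build R64 were used. Neither the annotation release nor how strand and multiply placed reads were handled is given in the sources used here. Blank lines (3) were left out, and groups came from the labels.

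Members were the features named snR. Members, classes and gene lists were chosen with earlier results of these data known. Counts were tested with edgeR 4.0.16 (R 4.3.3) by robust quasi-likelihood after its low-count filter and TMM scaling, in a single fit to all 12 libraries (8 residual degrees of freedom, biological coefficient of variation 8.68%), with Benjamini-Hochberg adjustment over 5615 features and a threshold of 0.05. DESeq2 1.42.0, other scalings, no filter, a block and leaving out each library were alternatives. No 2 libraries of a time were the same library deposited again, as their counts differed with a chi-square of 3.23 to 31.7 per degree of freedom. The test was tried on simulated counts with known changes.

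The rule for names took, at 10 CPM or more in the higher group, the 6 largest changes per direction against 0 h and the 3 largest otherwise, the 5 members with most counts, spliceosomal, cleavage and acetylation members, intron and cluster members, and up to 4 genes per protein list; others are said to be chosen after their values were seen. Sequences and coordinates, counted from 1, were read from the RefSeq genome R64, and complements were searched by exact match. Standard errors (SE) were derived from each contrast's F statistic.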

Additional observations from a re-analysis of the deposited data

How the results depend on the processing

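Relative to TMM scaling with edgeR, the number of snR features called moved by over 1.5 times in some settings. Scaled by total counts, 4 fell at 1 h, 16 at 3 h and 1 at 6 h against 0 h, 13 rose at 6 h, and 1 fell at 3 h against 1 h. With DESeq2's Wald test, 19 fell at 1 h, 9 at 6 h and 9 at 3 h against 1 h. Without the low-count filter 2 fell at 3 h against 1 h. Leaving out each library in turn, the number of snR features that rose or fell ranged over 0 to 1 and 5 to 22 at 1 h, 3 to 4 and 20 to 44 at 3 h, 5 to 8 and 1 to 23 at 6 h, 5 to 10 and 0 to 17 at 3 h against 1 h, and 8 to 35 and 0 to 1 at 6 h against 3 h. TMM on nuclear reading frames or DESeq2 size factors moved no such count by over 1.5 times.

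Column headers carry a letter, A to C, at each time, and the labels give no replicate numbers. Deviations from the group means correlated at 0.24 to 0.46 over the 6 pairs of A libraries, 0.27 to 0.45 over the 6 pairs of C libraries and -0.08 to 0.07 over the 6 pairs of B libraries, and at -0.48 to -0.26 between A and C. Since not every pair was over 0.1 the letter was not taken as a pairing, and not every library correlated best with its own letter. Yet the A libraries deviated alike and so did the C libraries, in opposite directions. The 3 deviations of a time sum to 0 for each feature, so B pairs near 0 cannot decide whether the letter marks a pairing. With this letter as a replicate block, chosen after seeing the data, 6 snR features fell at 1 h and 3 fell at 3 h against 1 h; the other counts moved by less than 1.5 times. Of 99 calls of a member, 24 did not pass under the block.

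For hosts of intron-encoded snoRNAs, total counts gave 1, 2 and 1 risers at 1, 3 and 6 h, and leaving out a library 0 to 1, 0 to 2 and 0 to 1. Intron-encoded snoRNAs that fell ranged over 1 to 3 at 1 h and 1 to 3 at 6 h, and 1 to 2 rose at 3 h. DESeq2 gave 1 riser at 3 h and 2 that fell at 6 h. Over all protein lists, total counts gave 39 risers and 7 falls at 1 h, at 3 h 66 risers and 2 falls, and at 6 h 51 risers and 9 falls, and leaving out a library 8 to 20 risers at 1 h and 19 to 32 at 3 h. Under total-count scaling 45.9%, 63.7% and 58.4% of all features rose and 10.7%, 8.87% and 14.4% fell at 1, 3 and 6 h. As a share of reading-frame and snR counts alone, box H/ACA features held 3.13% and spliceosomal features 0.330% at 0 h.

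Of 99 calls of a member in a comparison, 41 held in every alternative and none turned its direction. Among other genes, total-count scaling turned the sign of called values to 0.0118 for TEF4, 0.0032 for PRP31, 0.0299 for PRP8 and 0.01725 for RVB2 at 1 h, to 0.13 for IMD4, 0.12 for LHP1, 0.02065 for NHP2, 0.0714 for NOP58, 0.12 for PRP8 and 0.14 for SNU13 at 3 h, and to 0.0642 for ECM16, 0.15 for IMP4, 0.0029 for LSM4, 0.0018 for MPP10, 0.11 for PRP31 and 0.0431 for RVB2 at 6 h. The cause of these shifts is the scaling itself, which moves the median change of all features to 0.21, 0.35 and 0.34 on the log2 scale at 1, 3 and 6 h. Counts of rare members limit precision: the median standard error was 0.25 to 0.28 below 10 CPM over the 5 comparisons, against 0.20 at 10 CPM or more.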
